A study of Mus musculus with 18 samples.

Results

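Glucocorticoid hormone reaches the brain in each daily peak and in every stress response, and the hippocampus is one of its main targets. The 8 genes described here encode the 2 corticosteroid receptors and proteins that set how much hormone they meet or how strongly they respond: Nr3c1, Nr3c2, Fkbp5, Fkbp4, Ptges3, Hsd11b1, Crhr1 and Crhbp. They were chosen by symbol and matched to 8 of the 57180 gene identifiers in the count table, and all 8 were among the 16738 genes with enough counts to be tested. The tissue was the hippocampus of adolescent male wild-type C57BL/6J mice, with 1 library per mouse and 6 mice in each of 3 groups. The first group was exposed to repeated social defeat by the resident-intruder method, called chronic social defeat stress (CSDS), and was also trained in aerobic exercise, which began 1 week before the defeat and ran on through it. The second group had CSDS alone, and the third, the controls, had no treatment. No group was exercised without being defeated, so an effect of exercise could be measured only in defeated mice. All libraries carried the same batch label, and no label gave the hour of the day or the delay between the last defeat and dissection.

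Corticosterone, the glucocorticoid of mice, acts through the mineralocorticoid receptor Nr3c2, which binds it tightly and is occupied at low hormone levels, and through the glucocorticoid receptor Nr3c1, which binds it less tightly and fills when the hormone is high. Both receptors wait in the cytoplasm in a complex built on the chaperone Hsp90. In that complex the co-chaperone Ptges3, also called p23, holds the receptor in its hormone-binding state, Fkbp5 lowers its affinity for hormone, and Fkbp4 links it to the motor that carries it to the nucleus. Fkbp5 is itself induced by glucocorticoids, which closes a short negative feedback loop. Hsd11b1 is the enzyme that regenerates active corticosterone from its inert form inside cells. Crhr1 is the main brain receptor of corticotropin-releasing hormone (CRH), the peptide that starts the hormonal stress response, and Crhbp is a secreted protein that binds CRH and keeps it from the receptor.

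No difference between groups in any of the 8 genes passed the edgeR test, which sets it against the spread of the mice, and the largest departures from the common range came from single libraries rather than from a group. Control replicate 2 held Nr3c2 and Fkbp5 at their lowest and Nr3c1 and Crhr1 at their highest of all 18 libraries. Library totals were 18911080 to 24136591 estimated counts. Of the markers of hippocampal neurons, 8 of 8 for dentate granule cells, 6 of 6 for CA1 and 8 of 8 for CA2 and CA3 were in the table, and outside control replicate 2 none was at 0. In control replicate 2 the 8 dentate markers summed to 289 CPM (counts scaled to the size of the library), against 487 to 826 in the other 17 libraries, and 5 of the 8 lay below the range of those libraries: Prox1 at 10.4 against 83.5 to 145 CPM, C1ql2 at 0.408 against 40.7 to 142 CPM, Lct, Tdo2, and Dsp at a count of 0. Calb1, Pdzd2 and Stxbp6 lay within it. Its 8 neocortical markers summed to 691 CPM, against 180 to 292 CPM elsewhere, with 5 of the 8 above the range of the others (Lamp5, Tbr1, Cux2, Rorb and Rspo1), Fezf2 and Foxp2 within it, and Tshz2 below it. Most of its dentate and neocortical markers thus went against the hippocampal label. Fold changes and ratios that it moves are given with and without it. In whole tissue, a lower share of a cell type and less RNA per cell of that type cannot be told apart.

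Per kilobase of exon, the co-chaperones Fkbp4 and Ptges3 were the most abundant of the 8 and the CRH receptor the least. The length used was that of all annotated exons of a gene merged, and the transcripts expressed may be shorter. The order between genes depends on this length. Over the 18 libraries, Fkbp4 averaged 43.9 ± 5.51 CPM per kb and Ptges3 39.0 ± 6.1 CPM per kb (SD), which is a smaller gap than either spread. Nr3c2 followed at 26.8 ± 7.3 CPM per kb. Crhbp at 10.8 ± 2.39, Fkbp5 at 9.58 ± 1.96 and Nr3c1 at 9.53 ± 2.16 CPM per kb could not be ordered beyond their spread. Hsd11b1 was at 6.76 ± 1.25 CPM per kb and Crhr1 at 3.33 ± 1.11 CPM per kb. The estimated counts behind these levels ran from 117 to 386 for Crhr1, the fewest of the 8, and from 733 to 6063 for Nr3c2.

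**Figure D1:**
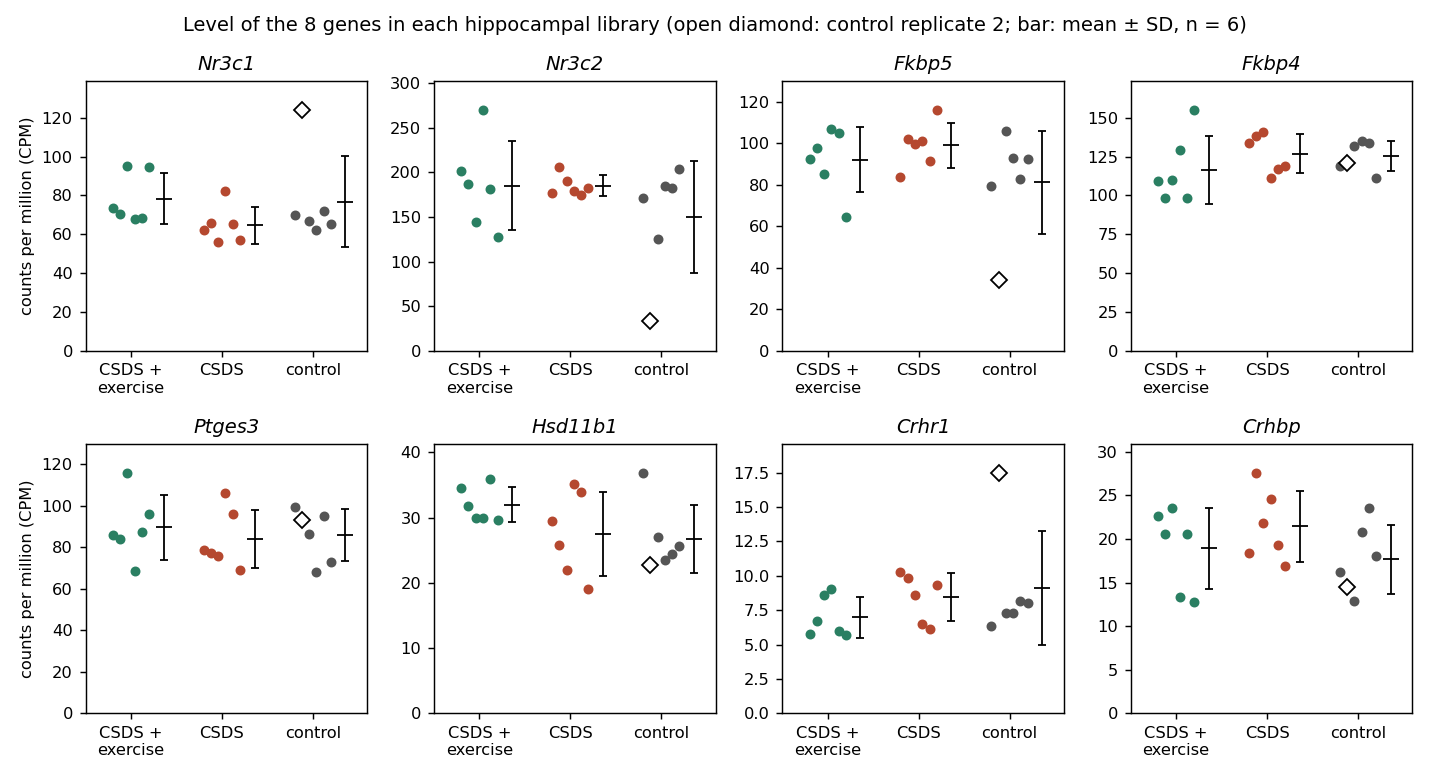
CPM (y axis) of each of the 8 genes in the 6 libraries of each group (x axis), with 1 point per mouse, the open diamond for control replicate 2, and the bar for the mean and SD (n = 6). The 3 groups overlap in every panel, and the open diamond lies away from all other points for Nr3c1 at 124 CPM, Nr3c2 at 33.3 CPM, Fkbp5 at 34.2 CPM and Crhr1 at 17.5 CPM.

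The genes also differed in how evenly the mice expressed them. The biological coefficient of variation estimated by edgeR was 0.337 for Nr3c2, above that of 84.3% of tested genes, and 0.139 for Fkbp4, above that of 23% of them. The other genes lay between, with 0.27 for Crhr1, 0.233 for Fkbp5, 0.218 for Crhbp, 0.195 for Nr3c1, 0.181 for Hsd11b1 and 0.165 for Ptges3. This order rested in part on control replicate 2. Over the other 17 libraries the coefficient of variation of the CPM was 21.7% for Crhbp, 19.5% for Crhr1, 18% for Nr3c2 and Hsd11b1, 16.1% for Ptges3, 15.8% for Nr3c1, 13.3% for Fkbp5 and 12.9% for Fkbp4. The promoters of Nr3c2, which departed most in control replicate 2, of Fkbp4, the least variable gene with and without that library, and of the hormone-induced Fkbp5 are printed here, from 250 bases before to 50 bases after the annotated RefSeq start (GRCm38.p6), 5′ to 3′ on the strand of the gene. They lie at chr8:76902080-76902379 on the plus strand for Nr3c2, chr6:128438607-128438906 on the minus strand for Fkbp4 and chr17:28486100-28486399 on the minus strand for Fkbp5. Capitals mark the matches to the motifs searched on both strands, which are named after the sequences.
Nr3c2: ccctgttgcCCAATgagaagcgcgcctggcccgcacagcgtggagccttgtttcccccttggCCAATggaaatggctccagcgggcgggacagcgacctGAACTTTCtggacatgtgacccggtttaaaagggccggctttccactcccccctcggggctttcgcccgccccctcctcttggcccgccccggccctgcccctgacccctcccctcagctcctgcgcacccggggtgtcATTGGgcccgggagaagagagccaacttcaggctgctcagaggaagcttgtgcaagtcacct
Fkbp4: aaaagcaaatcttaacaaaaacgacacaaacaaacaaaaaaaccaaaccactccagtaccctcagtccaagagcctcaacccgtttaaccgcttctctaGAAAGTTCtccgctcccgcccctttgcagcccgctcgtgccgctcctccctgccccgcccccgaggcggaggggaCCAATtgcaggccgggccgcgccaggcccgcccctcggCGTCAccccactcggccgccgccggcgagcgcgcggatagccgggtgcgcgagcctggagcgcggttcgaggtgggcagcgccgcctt
Fkbp5: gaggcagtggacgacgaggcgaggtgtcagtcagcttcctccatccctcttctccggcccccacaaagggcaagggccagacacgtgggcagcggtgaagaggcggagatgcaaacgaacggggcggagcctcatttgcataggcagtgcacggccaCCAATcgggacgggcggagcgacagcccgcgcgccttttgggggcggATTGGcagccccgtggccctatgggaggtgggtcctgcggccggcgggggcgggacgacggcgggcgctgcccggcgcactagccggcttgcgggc
The motif GAANNTTC, 2 units of the element bound by heat shock factor, was found in Nr3c2 and in Fkbp4, in each case at bases -151 to -144 from the start, and 7.86% of 32851 promoters of this length held it. CCAAT boxes numbered 3 in Nr3c2, 2 in Fkbp5 and 1 in Fkbp4 (37.4% of promoters held at least 1), and the half-site TGACG of the cyclic AMP response element lay at -38 to -34 in Fkbp4 (20.8% of promoters). These matches do not overlap one another. The TATA box TATAAA, held by 13.6% of promoters, was also searched and was not found in the printed windows. The full glucocorticoid response element, an inverted repeat of the half-site TGTTCT with a spacer of 3 bases, was in 0.00913% of all promoters and the half-site alone in 19%. Neither was among the letters of the 7 windows matched for the set (all members but Nr3c1). Other starts and the rest of each gene were not searched, so these windows cannot show whether a gene has such an element elsewhere. The windows of Fkbp5, Nr3c2 and Fkbp4 were 70.7%, 65.7% and 65.3% G or C, and held 32, 17 and 33 CG pairs.

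Nr3c2, the mineralocorticoid receptor gene (ENSMUSG00000031618, GRCm38 chr8:76899442-77245012, plus strand), had the widest range over all 18 libraries, 8.11-fold between the highest and the lowest, but 2.15-fold without control replicate 2, where that of Crhbp was 2.17-fold. Its lowest, median and highest levels were 127, 184 and 270 CPM in exercised CSDS mice, 175, 181 and 206 CPM in CSDS mice, and 33.3, 176 and 204 CPM in control mice. The CSDS mice were the most alike, and the other groups reached both below and, in the exercised mice, above them. The mean was 185 ± 50.1 CPM in exercised mice, 185 ± 11.6 CPM in CSDS mice and 150 ± 62.9 CPM in controls, or 173 ± 29.3 CPM in controls without replicate 2 (SD, n = 6, 6, 6 and 5). The log2 fold change was 0.30 ± 0.28 for CSDS over control (SE, 95% interval -0.28 to 0.89, edgeR adjusted p = 0.993), and 0.09 without control replicate 2. It was 0.00 ± 0.28 for exercised over unexercised CSDS mice (interval -0.58 to 0.58) and 0.30 ± 0.28 for exercised CSDS mice over controls (0.10 without control replicate 2). In control replicate 2, Nr3c2 was 5.47-fold below the median of the other 17 libraries.

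The next lowest Nr3c2 levels were in libraries with many transcripts of neighbouring tissue. These levels were 125 CPM in control replicate 3, 127 CPM in exercise replicate 6 and 144 CPM in exercise replicate 3. Those libraries had the highest sums of 8 thalamic markers, at 477, 881 and 334 CPM, against 104 to 264 CPM in the others. Control replicate 1, with the next highest sum at 264 CPM, had Nr3c2 at 171 CPM. Zic1 (9.83 to 228 CPM) and Calb2 (19 to 224 CPM) reached the highest levels of the thalamic markers outside control replicate 2, and can weigh most in the sums. The thalamic sum had its median at 156 CPM in exercised mice (104 to 881), 143 CPM in CSDS mice (114 to 195) and 138 CPM in controls (128 to 477), and none of the 8 markers was at 0. Control replicate 3 and exercise replicate 6 also had the highest CA2 and CA3 sums, at 837 and 802 CPM, and the lowest CA1 sums, at 477 and 391 CPM. Of the CA2 and CA3 markers, Pcp4 (49.8 to 334 CPM) and Prkcd (18.2 to 250 CPM) ranged most widely outside control replicate 2. The high sums can rest on these genes alone, so they do not show more CA2 and CA3 tissue. The highest Nr3c2 level, 270 CPM in exercise replicate 4, came with the highest dentate sum, 826 CPM. The part of these markers in the levels of Nr3c2 was not tested.

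Nr3c1, the glucocorticoid receptor gene (ENSMUSG00000024431, chr18:39410545-39519421, minus strand), had the smallest edgeR p of the 8 between exercised and unexercised CSDS mice. Its lowest, median and highest levels were 67.8, 71.9 and 95.1 CPM in exercised CSDS mice, 55.9, 63.5 and 82.3 CPM in CSDS mice, and 62.4, 68.2 and 124 CPM in control mice. Every exercised mouse lay above 5 of the 6 CSDS mice, and CSDS replicate 4, at 82.3 CPM, lay among the exercised mice. The mean was 78.3 ± 13 CPM in exercised mice, 64.7 ± 9.52 CPM in CSDS mice and 76.6 ± 23.3 CPM in controls (SD, n = 6 each), and 67.2 ± 3.83 CPM in the 5 controls other than replicate 2. For exercised over unexercised CSDS mice the log2 fold change was 0.28 ± 0.16 (SE, interval -0.05 to 0.60, edgeR adjusted p = 0.386). Without control replicate 2, which enters this comparison through the shared estimate of the spread, it was 0.28 ± 0.11 (interval 0.05 to 0.50, edgeR adjusted p = 0.213). CSDS mice were at -0.25 ± 0.16 against controls (edgeR adjusted p = 0.993), or -0.06 ± 0.11 without control replicate 2, and exercised mice at 0.03 ± 0.16, or 0.22 ± 0.11 without it.

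Nr3c2 exceeded Nr3c1 per kilobase in 17 of 18 libraries. The ratio was 2.95 ± 1.14 in exercised CSDS mice (1.59 to 4.72), 3.46 ± 0.521 in CSDS mice (2.59 to 4.04) and 2.61 ± 1.24 in controls (0.319 to 3.71). Without control replicate 2, the only library in which Nr3c1 was the higher, the controls averaged 3.07 ± 0.58 (2.23 to 3.71). The ranges of the 3 groups overlapped with and without that library. The lowest ratios among the defeated mice were 1.59 in exercise replicate 6 and 1.79 in exercise replicate 3, the libraries with many thalamic transcripts.

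**Figure D2:**
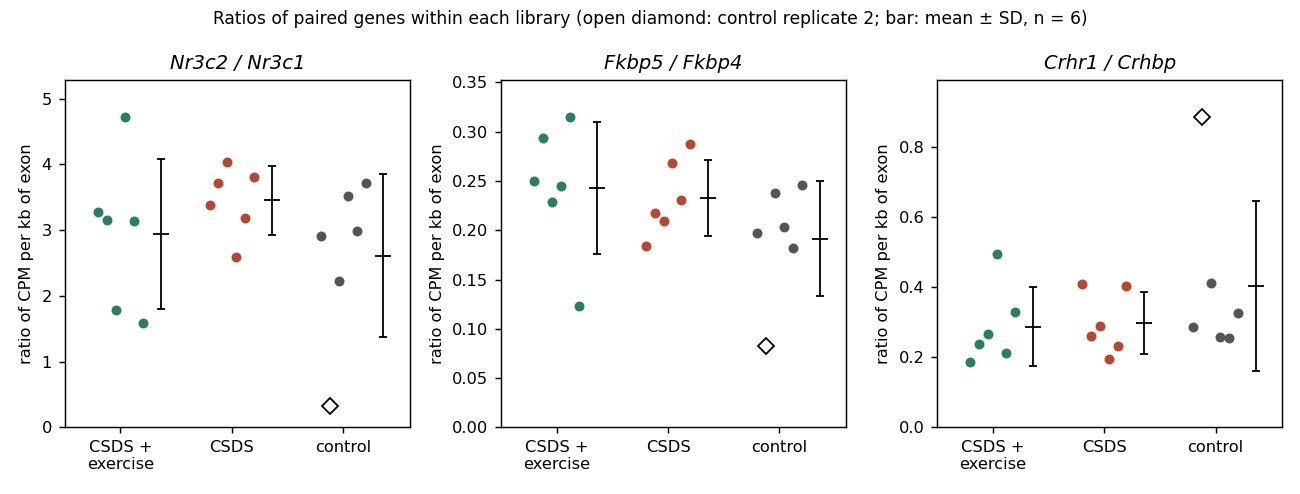
Ratio of the CPM per kilobase of exon of 2 genes within each library (y axis) by group (x axis), with 1 point per mouse, the open diamond for control replicate 2 and the bar for the mean and SD (n = 6). Nr3c2 is above Nr3c1 in 17 of 18 libraries, Fkbp5 is below Fkbp4 and Crhr1 below Crhbp in 18 of 18, and the open diamond is at an extreme in each panel.

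Fkbp5, the brake on the receptor and a glucocorticoid-induced gene (ENSMUSG00000024222, chr17:28399094-28517527, minus strand), reached 64.5, 95.1 and 107 CPM in exercised CSDS mice, 83.8, 101 and 116 CPM in CSDS mice, and 34.2, 87.6 and 106 CPM in controls (lowest, median, highest). The groups overlapped over most of their ranges. The mean was 91.9 ± 15.7 CPM in exercised mice, 98.9 ± 10.8 CPM in CSDS mice and 81.3 ± 24.9 CPM in controls, or 90.7 ± 10.4 CPM in controls without replicate 2. The log2 fold change was 0.28 ± 0.19 for CSDS over control (SE, interval -0.11 to 0.68, edgeR adjusted p = 0.993) and 0.13 ± 0.12 without control replicate 2. It was -0.11 ± 0.19 for exercised over unexercised CSDS mice and 0.18 ± 0.19 for exercised CSDS mice over controls, or 0.02 without control replicate 2. As a fold, the interval for CSDS over control reached from 0.925 to 1.6.

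Fkbp4 and Ptges3, the co-chaperones that favour hormone binding and transport, had overlapping levels in the 3 groups. Fkbp4 (ENSMUSG00000030357, chr6:128429735-128438677, minus strand) was at 98.2 to 155 CPM in exercised mice, 111 to 141 CPM in CSDS mice and 111 to 135 CPM in controls, with medians of 109, 127 and 127 CPM. Its highest level was in exercise replicate 6, and 4 of the 6 exercised mice lay below all CSDS and control mice. The log2 fold change was -0.12 ± 0.11 for exercised over unexercised CSDS mice (interval -0.34 to 0.10, edgeR adjusted p = 0.575), and it was 0.03 when a trend of each library on transcript GC content was removed. For CSDS over control it was 0.02 ± 0.11. Ptges3 (ENSMUSG00000071072, chr10:128058954-128077272, plus strand) was at 68.7 to 116 CPM in exercised mice, 69.3 to 106 CPM in CSDS mice and 68.2 to 99.5 CPM in controls, with medians of 86.7, 78 and 89.8 CPM. Its log2 fold changes were 0.10 ± 0.13 for exercised over unexercised CSDS mice, -0.03 ± 0.13 for CSDS over control and 0.06 ± 0.13 for exercised CSDS mice over controls. The first and last of these were -0.11 with the GC trend removed. Reads of a near-identical copy, the pseudogene Ptges3-ps, could be divided between both entries, but it held 0 to 66 estimated counts against 1526 to 2283 for Ptges3.

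The ratio of Fkbp5 to Fkbp4 per kilobase, the brake over the transporter, was 0.243 ± 0.0669 in exercised CSDS mice, 0.233 ± 0.0387 in CSDS mice and 0.192 ± 0.0586 in controls (SD, n = 6 each). The controls without replicate 2 averaged 0.213 ± 0.0275. Fkbp5 was below Fkbp4 per kilobase in 18 of 18 libraries, and the ranges of the 3 groups overlapped. In CPM, Fkbp5 was above Fkbp4 in exercise replicate 5 (105 against 98.2 CPM) and below it in every other library. The lowest ratios were 0.083 in control replicate 2 and 0.123 in exercise replicate 6.

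Hsd11b1, which makes corticosterone within the tissue (ENSMUSG00000016194, chr1:193221634-193264075, minus strand), was at 29.6, 30.9 and 35.9 CPM in exercised CSDS mice, 19, 27.7 and 35.1 CPM in CSDS mice, and 22.8, 25 and 36.9 CPM in controls (lowest, median, highest). All 6 exercised mice were above 5 of the 6 controls, with control replicate 1 above them all, and they varied less than the other groups. Their mean was 32 ± 2.68 CPM, against 27.5 ± 6.47 CPM in CSDS mice and 26.7 ± 5.24 CPM in controls. The log2 fold change was 0.26 ± 0.14 for exercised CSDS mice over controls (interval -0.04 to 0.56, edgeR adjusted p = 0.504), 0.21 ± 0.14 for exercised over unexercised CSDS mice (edgeR adjusted p = 0.46) and 0.04 ± 0.14 for CSDS over control. Without control replicate 1, exercised CSDS mice over controls were at 0.37 ± 0.13 (edgeR adjusted p = 0.341), and without control replicate 2 at 0.22 ± 0.15.

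Crhr1, the CRH receptor (ENSMUSG00000018634, chr11:104132855-104175523, plus strand), was at 5.73, 6.34 and 9.07 CPM in exercised CSDS mice, 6.12, 8.96 and 10.3 CPM in CSDS mice, and 6.33, 7.68 and 17.5 CPM in controls (lowest, median, highest). The highest level by far was in control replicate 2, 2.4 times the median of the other 17 libraries, which reached 10.3 CPM. For exercised CSDS mice over controls the log2 fold change was -0.39 ± 0.22 with all libraries (interval -0.85 to 0.08, edgeR adjusted p = 0.523) and -0.09 ± 0.16 without control replicate 2. For CSDS over control it was -0.11 ± 0.22, and 0.18 ± 0.16 without that library, so its sign was set by 1 mouse. For exercised over unexercised CSDS mice it was -0.28 ± 0.22 (edgeR adjusted p = 0.546), and -0.03 with the GC trend removed.

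Crhbp, the CRH-binding protein, which interneurons express (ENSMUSG00000021680, chr13:95431371-95444924, minus strand), was at 12.8, 20.6 and 23.6 CPM in exercised CSDS mice, 16.9, 20.5 and 27.6 CPM in CSDS mice, and 12.9, 17.1 and 23.5 CPM in controls. Control replicate 2, at 14.5 CPM, lay within the range of the others. CSDS mice averaged 21.4 ± 4.08 CPM and controls 17.7 ± 3.97 CPM, a log2 fold change of 0.28 ± 0.18 (interval -0.09 to 0.65, edgeR adjusted p = 0.993) that was 0.23 ± 0.18 without control replicate 2. Exercised mice averaged 18.9 ± 4.68 CPM, which put them at -0.18 ± 0.18 against unexercised CSDS mice and 0.10 ± 0.18 against controls. The summed level of 10 GABAergic interneuron markers had its median at 867 CPM in exercised mice (671 to 947), 913 CPM in CSDS mice (845 to 956) and 840 CPM in controls (765 to 1070), with none at 0, and its part in Crhbp was not tested. The ratio of Crhr1 to Crhbp per kilobase was 0.288 ± 0.112 in exercised mice, 0.298 ± 0.0894 in CSDS mice and 0.404 ± 0.243 in controls, or 0.307 ± 0.0655 in controls without replicate 2.

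Across the set, 0 of 8 genes were called at an adjusted p under 0.05 (edgeR quasi-likelihood test with Benjamini-Hochberg adjustment over all 16738 genes) in any comparison. The same test called 0% of all genes for CSDS against control, 0% for exercised against unexercised CSDS mice, 0.0179% (Plekhf1, Gm42664 and Gm48415) for exercised CSDS mice against controls and 0% for any difference among the 3 groups. At an unadjusted p under 0.05 the count was again 0 of 8 in each, against 3.51%, 15.6%, 11.2% and 11.5% of all genes in the same order. Without control replicate 2 it was 1 of 8, Nr3c1, for exercised against unexercised CSDS mice, against 17.7% of all genes, and 0 of 8 in the other pairs. Levels of no gene of the set separated 2 groups without overlap, where 0.239%, 0.89% and 0.562% of all genes did so for the 3 pairs of groups. The median log2 fold change of the 8 genes was 0.03 for CSDS over control, -0.05 for exercised over unexercised CSDS mice and 0.08 for exercised CSDS mice over controls, beside 0.00, 0.02 and 0.01 over all genes tested. DESeq2 called 0 of 8 genes in each comparison, as did limma voom without sample weights. With sample quality weights, limma voom called 4 of 8 for exercised over unexercised CSDS mice, where it called 33.3% of all genes: Nr3c1 (log2 fold change 0.27, adjusted p = 0.0293) and Hsd11b1 (0.34, adjusted p = 0.0424) were higher, and Fkbp4 (-0.28, adjusted p = 0.0138) and Crhr1 (-0.54, adjusted p = 0.00794) lower. With the GC trend removed as well, it called Nr3c1 (0.35, adjusted p = 0.0389) and 8.11% of all genes. The trend removed is that of genes of like GC content, and Nr3c1, at 53% against a median of 50.5%, ran against it. Its level fell with the GC slope of the library described below (r = -0.83 over 17 libraries). The removal therefore raised its value rather than taking out that relation, whose part in the call was not tested. With quality weights and the GC trend kept, limma voom called 1 of 8 for any difference among the 3 groups, against 18.9% of all genes.

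**Figure D3:**
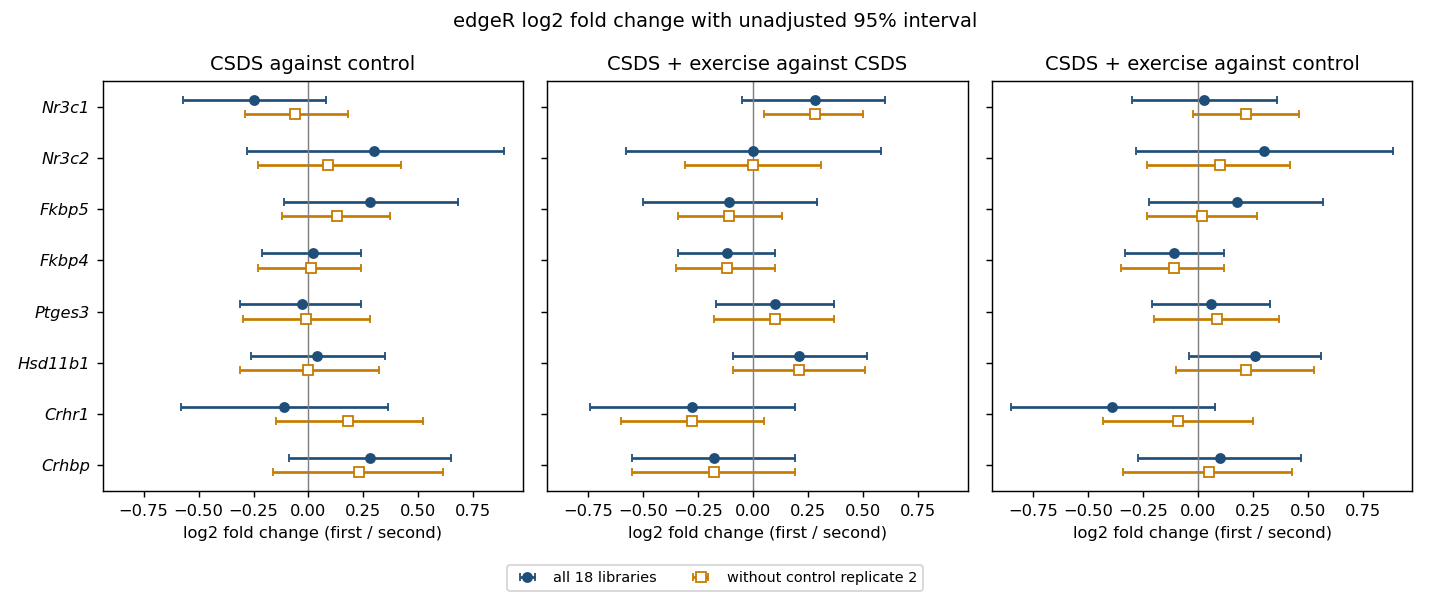
Log2 fold change (x axis, first group named over the second) with its unadjusted 95% interval for each of the 8 genes (y axis) in the 3 comparisons, with filled circles for all 18 libraries and open squares without control replicate 2. With all libraries each interval includes 0, the CSDS over control values of Nr3c1 and Nr3c2 move to -0.06 and 0.09 without control replicate 2, and the Nr3c1 interval for exercised over unexercised CSDS mice then runs from 0.05 to 0.50.

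Part of the spread among mice ran with a property of the libraries. For each library, the slope of the deviation of its genes from their mean on transcript GC content was computed. Whether it reflects the tissue or the preparation of the library was not tested. The slope was -0.44 to 0.19 in exercised CSDS mice, -0.15 to 0.28 in CSDS mice and -0.09 to 0.31 in controls (log2 per 10 GC points). Among exercised mice only replicate 4 (0.19) was positive, with the next at -0.12. CSDS replicates 1, 2, 3 and 6 were at 0.17 to 0.28, and CSDS replicates 4 and 5 at -0.15 and -0.06. The slope thus ran in part with the comparison of exercised and unexercised CSDS mice. The mitochondrial percentage was 1.71 to 2.42 in every library with a slope of at least 0.11, and 3.07 to 5.1 in the others. Over the 17 libraries other than control replicate 2, Nr3c1 was lower where the slope was higher (Pearson r = -0.83, Spearman rho = -0.84, permutation p = 1e-05 and 2e-05, of which the first is the smallest that 100000 permutations give). The r was -0.75 without the 2 libraries of most extreme slope, -0.73 within the 6 exercised mice and -0.75 within the 6 CSDS mice. Ptges3 followed the slope as closely (r = -0.84, rho = -0.78, permutation p = 3e-05 and 0.00041), with -0.74 without the 2 most extreme libraries and -0.95 and -0.91 within the same groups. Of 8 relations computed, those of Nr3c1, Ptges3, Hsd11b1 (r = -0.62, rho = -0.66, permutation p = 0.00744 and 0.00463) and Crhr1 (r = 0.59, rho = 0.64, permutation p = 0.0139 and 0.00751) had Benjamini-Hochberg adjusted permutation p-values of 8e-05, 0.00012, 0.0198 and 0.0278 for r. The r of Hsd11b1 was -0.67 and that of Crhr1 0.92 without the 2 most extreme libraries, within the exercised mice they were 0.04 and 0.22, and within the CSDS mice -0.74 and 0.89. Fkbp4 gave r = 0.50 and rho = 0.58 (permutation p = 0.0423 and 0.0165, adjusted 0.0669 and 0.0264) and Nr3c2 r = 0.48 and rho = 0.47 (permutation p = 0.0502 and 0.0579, adjusted 0.0669 and 0.0772). The relations of Fkbp5 (r = 0.41, rho = 0.36) and Crhbp (r = -0.05, rho = -0.01) had adjusted permutation p-values of 0.124 and 0.859 for r. Transcript GC content was 42.8% for Ptges3 and 53% for Nr3c1, on either side of the median of 50.5% over all genes. The part of the slope in the differences between groups was not tested by itself. With the trend removed, and beside the values given above, exercised over unexercised CSDS mice were at 0.12 ± 0.13 for Hsd11b1 and 0.33 ± 0.17 for Nr3c1. Exercised CSDS mice over controls were then at 0.19 ± 0.13 for Hsd11b1, -0.25 ± 0.22 for Crhr1 and -0.01 ± 0.10 for Fkbp4, and CSDS over control at -0.22 ± 0.22 for Crhr1 and -0.04 ± 0.10 for Fkbp4.

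**Figure D4:**
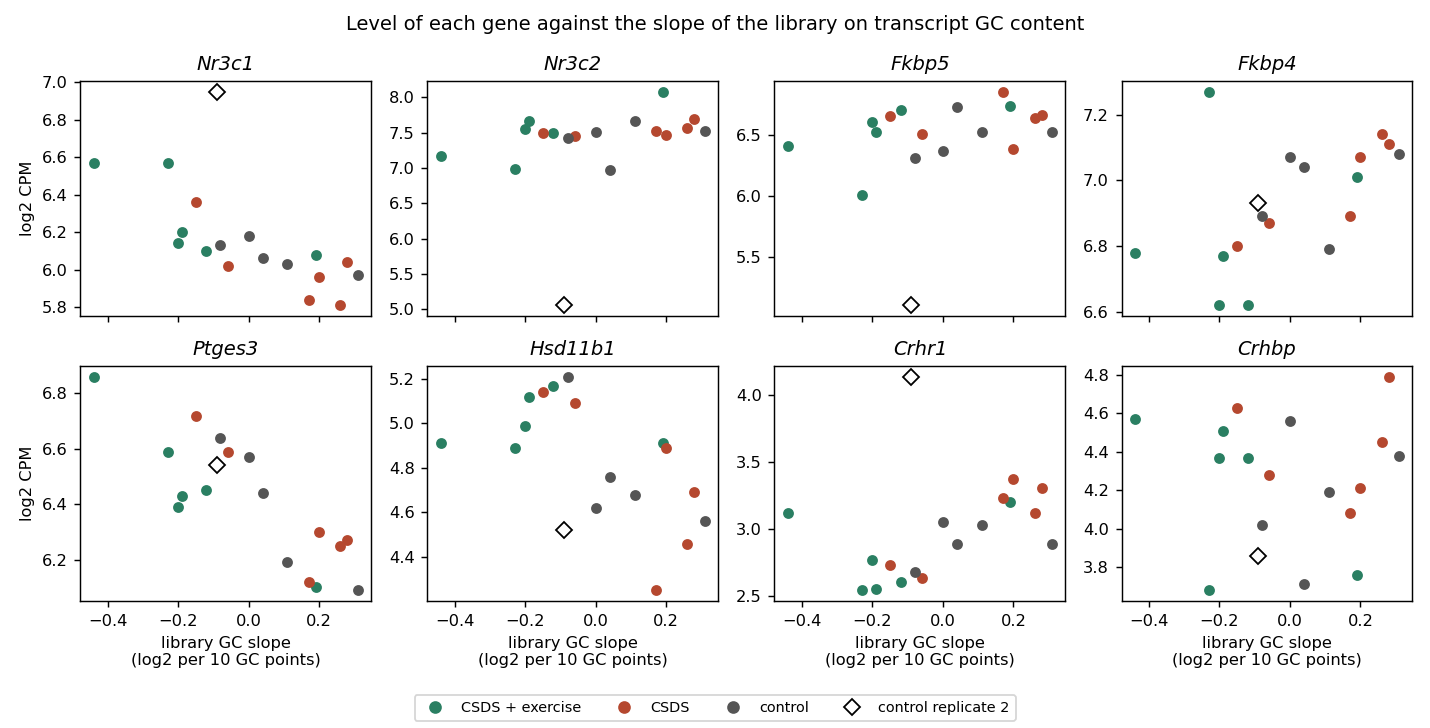
Log2 CPM of each gene (y axis) against the slope of its library on transcript GC content (x axis, log2 per 10 GC points), with 1 point per mouse coloured by group and the open diamond for control replicate 2. Nr3c1 and Ptges3 fall along the slope (r = -0.83 and -0.84 over the 17 other libraries), while Crhbp shows no trend (r = -0.05).

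The genes of the set were compared with one another over the same 17 libraries in 28 pairs. Nr3c1 and Ptges3 varied together (r = 0.76, rho = 0.72, permutation p = 0.00023 and 0.00141, adjusted 0.00644 and 0.0197), with 0.69 after leaving out the 2 libraries of most extreme Nr3c1 and 0.21 once the GC slope was removed. Nr3c2 and Ptges3 ran in opposite directions by rank (r = -0.57, rho = -0.72, permutation p = 0.0151 and 0.00133, adjusted 0.0925 and 0.0197), and this r was -0.59 without the 2 libraries of most extreme Nr3c2 and -0.20 with the slope removed. The 2 receptors were not shown to vary with each other (r = -0.46, rho = -0.31, permutation p = 0.0637 and 0.229, adjusted 0.17 and 0.419), and their r was 0.00 without the 2 libraries of most extreme Nr3c1. Nr3c1 and its brake Fkbp5 gave r = -0.58 and rho = -0.35 (permutation p = 0.0165 and 0.169, adjusted 0.0925 and 0.385), a relation that rested on 2 libraries, since r was -0.21 without them.

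Outside the set, 11195 named genes with at least 5 CPM on average were ranked by Spearman correlation with each gene over the 18 libraries, and the 3 closest are named as a description. All points share their library, its depth, its tissue composition and its slope on transcript GC content. Nr3c2 was followed most closely by Gria1, which encodes an AMPA receptor subunit (rho = 0.96 over 18 libraries and 0.96 over the 17 without control replicate 2), and then by Cttn, for the actin-binding protein cortactin (0.95), and Stim2, for a calcium sensor of the endoplasmic reticulum (0.94). In control replicate 2, Gria1 was at 260 CPM, beside a mean of 1084 CPM over all libraries. Nr3c1 was followed by Man1a2, a mannosidase of the Golgi (0.95), Rgs7bp, a partner of G protein regulators (0.94), and Micu3, a regulator of mitochondrial calcium uptake (0.93). Crhr1 had Rims4, of the presynaptic active zone (0.95), Tmem44 (0.94) and Man1c1 (0.93), and Rims4 stood at 183 CPM in control replicate 2 against a mean of 85.6 CPM. Transcript GC content was 46.5, 42.6 and 35.7% for the genes named with Nr3c1, below the median of 50.5%. It was 56.2, 56.4 and 57.3% for those named with Crhr1. Nr3c1 and Crhr1 both followed the GC slope of the libraries, whose part in these likenesses was not tested. The likeness was looser for Fkbp5, with the translation factor gene Eif4b (0.86), Ddx24 (0.82) and Zfp61 (0.80), and for Crhbp, with Ankra2 (0.82), the lipase gene Lpl (0.80) and the cannabinoid receptor gene Cnr1 (0.80).

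Of the other chaperones and co-chaperones of steroid receptor complexes, 18 of 18 were tested and 0 were called by edgeR or DESeq2 in any comparison. For exercised over unexercised CSDS mice, 0 of 18 were higher and 5 lower at an unadjusted p under 0.05, beside 8.1% higher and 7.46% lower of all genes, and the median of the list was 0.01. The heat-inducible chaperone Hspa1a was at 15.2 ± 4.08 CPM in exercised mice and 24.3 ± 7.53 CPM in CSDS mice (log2 fold change -0.67 ± 0.21, edgeR adjusted p = 0.204, and -0.40 with the GC trend removed). Its near-identical neighbour Hspa1b, whose reads could be divided between both, was at -0.63 ± 0.29, or -0.41 with that trend removed. Ppp5c, a phosphatase of the receptor complex, was at -0.20 ± 0.07, which was -0.04 with the GC trend removed, and Cdc37, which brings kinases to Hsp90, at -0.16 ± 0.07. For exercised CSDS mice over controls 2 were lower, Dnajb1, a partner of Hsp70 proteins (-0.26 ± 0.09), and Ppp5c (-0.17 ± 0.07), beside 4.39% of all genes. For CSDS over control 1 was lower, Tsc1, a co-chaperone and a brake on growth signalling (-0.17 ± 0.08), beside 1.68% of all genes. Hsp90ab1, the constitutive Hsp90, was at 2215 ± 101 CPM in CSDS mice and 2072 ± 202 CPM in controls (0.10 ± 0.08). Limma voom with quality weights called 8 of the 18 for exercised over unexercised CSDS mice, of which 6 were lower, where it called 33.3% of all genes.

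Of 12 genes for CRH-family peptides, their other receptor and related stress peptides, 6 passed the filter on low counts. With all libraries, 0 of them were called by edgeR, DESeq2 or limma voom or had an unadjusted edgeR p under 0.05. Without control replicate 2, 1 of 6 was lower at that p for exercised over unexercised CSDS mice. Likewise 1 was lower for exercised CSDS mice over controls. Of all genes, 17.7% and 11.7% had such a p in these comparisons, in either direction. With the GC trend removed, 1 was lower in the first of these comparisons and 1 higher in the second, beside 5.96% and 7.44% of all genes. Crh itself averaged 1.04 ± 0.267 CPM in exercised CSDS mice, 1.29 ± 0.315 CPM in CSDS mice and 1.61 ± 1.28 CPM in controls. Exercised CSDS mice over controls gave -0.62 ± 0.35 for Crh, and -0.07 without control replicate 2. Mc4r, a melanocortin receptor, was at -0.37 ± 0.20 for exercised over unexercised CSDS mice (edgeR adjusted p = 0.36). Adcyap1, for the stress peptide PACAP, was at 0.33 ± 0.35 in the same comparison, and its receptor gene Adcyap1r1 at 0.12 ± 0.10 for CSDS over control. Crhr2, the second CRH receptor, was at -0.34 ± 0.64 for exercised over unexercised CSDS mice, and it is expressed in choroid plexus, whose 8 markers summed to between 66.6 and 6601 CPM in exercised mice, 98.2 and 8516 CPM in CSDS mice and 19.9 and 5510 CPM in controls. The part of choroid plexus in Crhr2 was not tested. Ucn, Ucn2, Ucn3, Avp, Avpr1a and Avpr1b did not pass the filter, and the highest of them in any library was Avpr1a at 1.19 CPM.

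Among genes of corticosteroid metabolism and transport, 10 of 14 were tested and 0 were called by edgeR or DESeq2. Hsd3b2, a hydroxysteroid dehydrogenase, was the one with an unadjusted p under 0.05, at 2.59 ± 0.47 CPM in exercised mice, 1.78 ± 0.409 CPM in CSDS mice and 1.74 ± 0.435 CPM in controls (0.53 ± 0.20 over CSDS mice and 0.57 ± 0.20 over controls, edgeR adjusted p = 0.242 and 0.302). That made 1 of 10 in each of these comparisons, beside 15.6% and 11.2% of all genes. H6pd, which supplies the reducing cofactor of Hsd11b1, was at -0.26 ± 0.16 for exercised over unexercised CSDS mice, or -0.07 with the GC trend removed. Srd5a1, a steroid reductase, was at -0.10 ± 0.09, and Abcb1a, a pump of the blood-brain barrier that exports steroids, at -0.11 ± 0.14, both for CSDS over control. Hsd11b2, the enzyme that inactivates corticosterone, was below the filter with a highest level of 0.169 CPM, as were Cyp11b1, Cyp21a1 and Serpina6. Limma voom with quality weights called Hsd3b2 higher and H6pd lower in exercised than in unexercised CSDS mice, 2 of 10 beside 33.3% of all genes. Of 20 coregulators of nuclear receptors, 20 were tested and 0 were called by edgeR or DESeq2. Med1, a Mediator subunit that contacts nuclear receptors, was at 0.15 ± 0.07 for exercised over unexercised CSDS mice and Nrip1, a corepressor, at 0.23 ± 0.10 for exercised CSDS mice over controls, the 2 with an unadjusted p under 0.05. Each was 1 of 20 in its comparison, beside 15.6% and 11.2% of all genes. The same weighted voom test called 6 of the 20 between exercised and unexercised CSDS mice, with 5 lower, a share near the 33.3% of all genes that it called.

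Downstream of the receptors, 23 of 23 genes known to be induced by glucocorticoids were tested, and 0 were called by edgeR at an adjusted p under 0.05. For CSDS over control, 1 was higher and 4 were lower at an unadjusted p under 0.05, beside 1.83% and 1.68% of all genes, and for exercised CSDS mice over controls 1 was higher and 9 were lower, beside 6.8% and 4.39%. The median log2 fold change of the list was -0.25 and -0.27 in these comparisons, which share the control mice, and -0.04 for exercised over unexercised CSDS mice. In that last comparison 1 gene was lower, beside 7.46% of all genes. Without control replicate 2 the counts were 1 higher and 3 lower for CSDS over control. For exercised CSDS mice over controls they were 2 higher and 9 lower, and for exercised over unexercised CSDS mice 0 higher and 2 lower. The medians were then -0.18, -0.31 and -0.04. In the same order, 2.38%, 11.7% and 17.7% of all genes had such a p, in either direction. Sgk1, a kinase that regulates sodium channels, was at 57.1, 74.9 and 121 CPM in exercised CSDS mice, 69.8, 79.5 and 110 CPM in CSDS mice, and 108, 153 and 199 CPM in controls (lowest, median, highest). Exercise replicate 5 and CSDS replicates 5 and 6, at 121, 108 and 110 CPM, came up to the lowest control, at 108 CPM, and the other 9 defeated mice lay below all controls. Sgk1 was at -0.93 ± 0.18 for exercised CSDS mice over controls (edgeR adjusted p = 0.0827) and at -0.81 ± 0.18 for CSDS over control (edgeR adjusted p = 0.993), and these values were -0.94 and -0.82 without control replicate 2.

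Zbtb16, a zinc finger repressor, was on the other side, at 66.1 ± 9.99 CPM in CSDS mice and 42 ± 9.25 CPM in controls (0.65 ± 0.17, edgeR adjusted p = 0.993), and at 0.47 ± 0.17 in exercised CSDS mice over controls. Klf15, a regulator of amino acid and lipid use, separated exercised from unexercised CSDS mice without overlap, at 15.3 to 20.2 CPM in exercised mice and 21.7 to 33 CPM in CSDS mice (-0.59 ± 0.12, edgeR adjusted p = 0.143). Of all genes, 0.89% separated these groups in this way, and Klf15 was named for the smallest p of its list there. Dusp1, a phosphatase of MAP kinases, was at -0.96 ± 0.27 for exercised CSDS mice over controls, or -0.56 without control replicate 2, and for CSDS over control at -0.69 ± 0.27, or -0.29 without it. Nfkbia, the inhibitor of NF-kappaB, was at -0.54 ± 0.15 and Errfi1, an inhibitor of EGF receptors, at -0.27 ± 0.10 for exercised CSDS mice over controls. Tsc22d3, for the anti-inflammatory protein GILZ, was at -0.43 ± 0.15 and the clock gene Per1 at -0.48 ± 0.17 in the same comparison. For CSDS over control, Nfkbia was at -0.37 ± 0.15, Errfi1 at -0.32 ± 0.10, Tsc22d3 at -0.31 ± 0.15 and Per1 at -0.25 ± 0.17. Klf9 was at 0.03 ± 0.11 for exercised CSDS mice over controls and 0.00 ± 0.11 for CSDS over control. In the same order Fkbp5, the member of the set that is induced in the same way, was at 0.18 ± 0.19 and 0.28 ± 0.19. DESeq2 called Sgk1 (adjusted p = 0.000688), Klf15 (adjusted p = 0.0405) and Dusp1 (adjusted p = 0.0445) lower in exercised CSDS mice than in controls, where it called 0.675% of all genes, and Klf15 lower in exercised than in unexercised CSDS mice (adjusted p = 0.0025), where it called 1.03%. Limma voom with quality weights called Cebpd, Dusp1, Klf15 and Per1 lower in exercised than in unexercised CSDS mice and Errfi1 and Sgk1 lower in exercised CSDS mice than in controls, beside 33.3% and 1.09% of all genes.

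**Figure D5:**
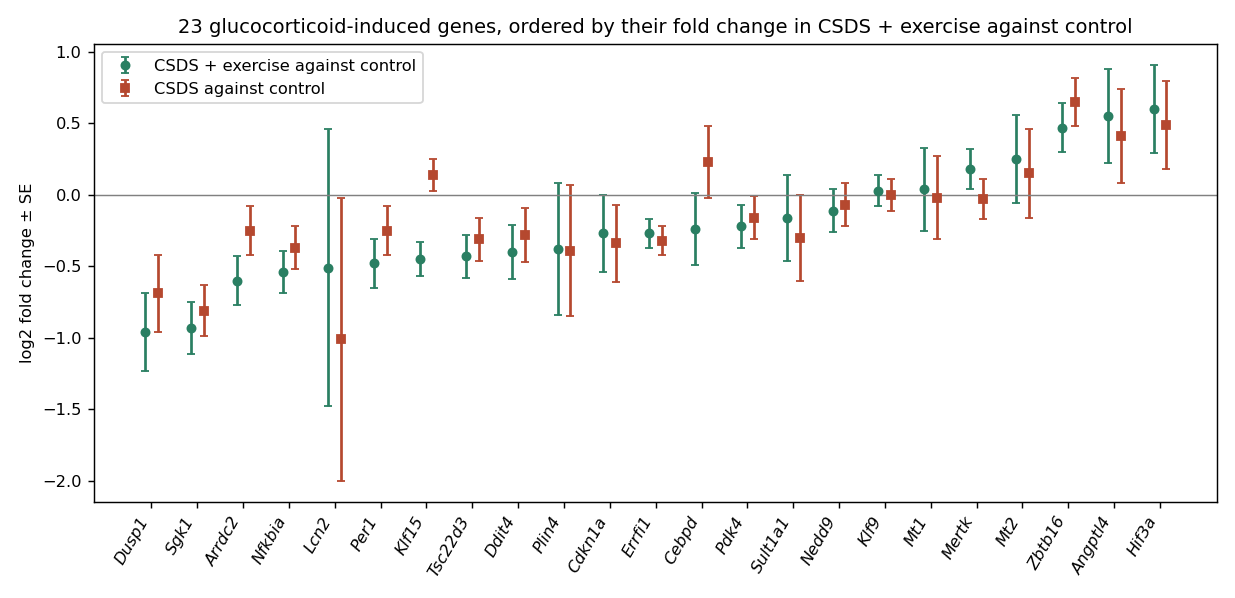
Log2 fold change with its SE (y axis) of 23 glucocorticoid-induced genes (x axis) for exercised CSDS mice over controls (circles) and CSDS mice over controls (squares), ordered by the first, where both comparisons use the same 6 controls. In each comparison 16 of the 23 genes lie below 0, Sgk1 lies at -0.93 and -0.81, and Zbtb16 at 0.47 and 0.65.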

How the data were processed

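Hippocampal poly(A) RNA of 18 mice was sequenced as 1 stranded library per mouse, per the labels' protocols. The authors deposited estimated counts per gene (expected counts, with no normalization). The submitters' processing notes name fastp, HISAT2, RSEM and GRCm38 (mm10); the sources used here give no versions, annotation release or strand setting. Estimated counts were rounded to whole numbers, which altered 22.7% of the values above 0. Identifiers without a symbol held 0.62% of the counts and were kept. Of overlapping genes, only the antisense transcript Gm10649 shared exon bases with a member (247 bases with Nr3c2), and it held 22 to 67 estimated counts.

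Genes with at least 10 counts in enough libraries (edgeR 4.0.16 filterByExpr, minimum total 15) were scaled by TMM and fitted over the 3 groups with edgeR's quasi-likelihood test in R 4.3.3, with Benjamini-Hochberg adjustment over 16738 genes. SE is the log2 fold change over the root of F, and intervals are unadjusted. Levels are CPM on TMM-scaled library sizes. Exon lengths, coordinates and transcript GC content are from GENCODE M21, promoters from RefSeq. Correlations used log2 CPM and 100000 permutations, two-sided. Alternatives were DESeq2 1.42.0, limma 3.58.1 voom, other scalings and filters, a GC offset (lowess span 0.3), the replicate block and leaving out each library. Scripts were tested on simulated data. All 45 pairs of replicates differed beyond sampling noise. P-values measure the spread between mice of 1 experiment.

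Members and lists were chosen with earlier results of these data known. Genes to be named were the 8 members, up to 4 genes of each pathway list with the smallest p in each comparison, Sgk1, Tsc22d3, Zbtb16, Klf9, Per1, every gene called by edgeR, and the 3 genes most like each of 5 members. Values are given for part of these list genes, and the rest enter as counts.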

Additional observations from a re-analysis of the deposited data

Results flagged for a closer look

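In 87 groups of 6 libraries, 1 value per group was compared with the others by its gap to the nearest value over the range of the group, and 13 exceeded Dixon's 95% critical value, a level that chance reaches in about 1 of 20 groups. Control replicate 2 held 7 of the 13. There Nr3c1 was at 124 CPM (62.4 to 72.2 CPM in the other 5 controls), Fkbp5 at 34.2 CPM (79.4 to 106), Crhr1 at 17.5 CPM (6.33 to 8.19), the ratio of Crhr1 to Crhbp per kilobase at 0.885 (0.255 to 0.413), Hsd3b2 at 2.59 CPM (1.34 to 1.72), Dusp1 at 60.9 CPM (14.3 to 30.9) and Klf9 at 272 CPM (174 to 188). Hsd11b1 was at 36.9 CPM in control replicate 1, against 22.8 to 27.1 CPM in the other controls.

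Among the pathway genes, Ppp5c at 124 CPM and Hspa1b at 37.6 CPM stood above the other exercised mice in exercise replicate 4 (98.9 to 107 and 11.3 to 20.7 CPM). Nfkbia was at 25.4 CPM in exercise replicate 5 (13.1 to 17.4 CPM in the others), Nrip1 at 47.7 CPM in control replicate 6 (34.6 to 38.7 CPM) and Tsc1 at 81.9 CPM in CSDS replicate 6 (60.4 to 68.3 CPM).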

How the results depend on the processing

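The count of called members stayed at 0 in each comparison under the alternatives run, except that limma voom with quality weights gave 4 for exercised against unexercised CSDS mice and 1 for any difference among the groups, and 1 for exercised against unexercised CSDS mice with the GC trend also removed. Weighted voom with the GC trend removed, unweighted voom, and the GC offset without exercise replicate 4 or control replicate 2 were added after seeing the data.

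Over all genes, CSDS against control gave 0 calls in each. Exercised against unexercised CSDS mice (0 calls) gave 173 by DESeq2, 5567 by weighted voom, 1358 with its GC trend removed, 2 without a filter, 1 with the GC offset, 1 with these 2 groups alone, 1 by unweighted voom and 0 to 625 leaving out 1 library, where 625 was without exercise replicate 4 and 43 without CSDS replicate 5. Exercised CSDS mice against controls (3 calls) gave 113, 183 and 25 by the first 3 of these, 1 with the GC offset without exercise replicate 4, and 0 with the GC offset without control replicate 2. It gave 0 with no filter, a filter of 1 CPM in 6 libraries, the block, the GC offset with or without block, these groups alone or unweighted voom, and 0 to 13 leaving out 1 library, where 13 was without exercise replicate 4. Any difference (0 calls) gave 161, 3167 and 114, 1 with the GC offset without exercise replicate 4, and 0 to 2 leaving out 1 library.

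Replicate numbers did not pair the mice (correlations of deviations of -0.465 to 0.255), and the replicate block gave 0, 0 and 0 calls.

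Values near 0 changed sign. Nr3c2, exercised over unexercised CSDS mice, was 0.00 to -0.07 under DESeq2, RLE scaling, other filters, voom, the block (-0.04), the GC offset (-0.03, and -0.07 with block) and voom with the GC trend removed (-0.05), with -0.01 by weighted voom and -0.17 with the GC offset without exercise replicate 4. Fkbp4, CSDS over control, was -0.06 to 0.00 (-0.04 with the GC offset, -0.03 also without control replicate 2, -0.01 with these groups alone), and for exercised over unexercised CSDS 0.02 and 0.03 with the GC offset. Ptges3 was 0.00 or 0.01, -0.10 or -0.11, and -0.17 to -0.03 (-0.10 or -0.11 with the offset) in the 3 comparisons. Hsd11b1, CSDS over control, was -0.09 by weighted voom and -0.02 with the GC trend removed. Crhr1 was 0.27, 0.10 and 0.11 for CSDS over control by weighted voom, with the GC offset without control replicate 2 and with the GC trend removed, and 0.08 over controls in exercised mice with the second. Nr3c1 over controls in exercised mice was 0.00 without a filter. Zbtb16, exercised over unexercised CSDS mice, was 0.03 or 0.00, Per1 0.04 or 0.02 with the GC trend removed, and Klf9 -0.03 to -0.01 (-0.02 with these groups alone). The causes were not tested. Leaving out 1 library at a time turned some signs. For CSDS over control the ranges were -0.19 to 0.18 for Crhr1 (0.18 without control replicate 2), -0.02 to 0.05 for Fkbp4, -0.04 to 0.16 for Hsd11b1, -0.11 to 0.01 for Ptges3 and -0.05 to 0.12 for Klf9. For exercised over unexercised CSDS mice they were -0.16 to 0.09 for Nr3c2 (-0.16 without exercise replicate 4) and -0.03 to 0.08 for Klf9, and for exercised CSDS mice over controls -0.03 to 0.22 for Nr3c1 (0.22 without control replicate 2), -0.02 to 0.11 for Ptges3 and -0.03 to 0.15 for Klf9.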
